A study of Mus musculus with 2 samples.

Results

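MHC class I molecules carry peptides to the cell surface, and costimulatory molecules decide how a T cell answers to them. Described here are 10 mouse genes of these kinds on a pair of arrays, 1 for each of 2 cell lines. They were chosen by symbol: B2m, H2-D1, H2-K1, H2-T23, H2-M3, Cd1d1, Cd274, Cd276, Cd40 and Icosl. A probe set counted as a member's if the platform annotation gave it to that gene alone. By this rule 9 of the 10 genes had probe sets, 25 in all, out of 18194 genes and 45101 probe sets of every kind. H2-T23 had none of its own.

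MS-1 comes from pancreatic microvessels and SVEC4-10 from an axillary lymph node. Both are established endothelial lines immortalised with the large T antigen of the virus SV40, and the labels name no treatment. MS-1 grew in medium with 5% serum and SVEC4-10 in medium with 10%, for 3 to 5 days and up to passage 5, so the serum and the line cannot be told apart. From each line came 1 culture and 1 array, so differences lack a replicate check and are described by size alone, without p-values. Values written as in MS-1 or in SVEC4-10 are those of the array labelled so.

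A class I molecule consists of a polymorphic heavy chain, such as those encoded by H2-K1 and H2-D1, and the invariant light chain beta-2-microglobulin, encoded by B2m. Endothelial cells carry class I molecules constitutively and more of them after interferon, and they can also display ligands of the B7 family, which promote or restrain T cells. Class I heavy chain genes differ strongly between inbred strains and resemble each other within a genome. The labels do not give the strain of either line.

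The promoters of the 3 genes that encode the classical class I molecule are shown because each holds a match to an NF-kB site. Of the 10 genes, 8 had a promoter in the RefSeq table of build GRCm38.p6. The 250 bases before the transcript start are printed, 5′ to 3′ on the gene's strand. Capitals mark matches to the interferon-stimulated response element core (GAAA, any 2 bases, GAAA) or to an NF-kB site (GGGA, any base, T, any 2 bases, CC), searched on both strands. The windows lie at chr2:122147437-122147686 on the plus strand for B2m, chr17:35262844-35263093 on the plus strand for H2-D1 and chr17:34000348-34000597 on the minus strand for H2-K1, the farther upstream of its 2 starts in the table.
B2m: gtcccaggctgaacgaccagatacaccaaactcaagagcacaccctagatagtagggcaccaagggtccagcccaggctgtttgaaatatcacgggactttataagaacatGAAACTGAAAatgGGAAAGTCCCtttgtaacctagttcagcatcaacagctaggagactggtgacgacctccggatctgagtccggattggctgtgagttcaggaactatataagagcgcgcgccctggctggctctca
H2-D1: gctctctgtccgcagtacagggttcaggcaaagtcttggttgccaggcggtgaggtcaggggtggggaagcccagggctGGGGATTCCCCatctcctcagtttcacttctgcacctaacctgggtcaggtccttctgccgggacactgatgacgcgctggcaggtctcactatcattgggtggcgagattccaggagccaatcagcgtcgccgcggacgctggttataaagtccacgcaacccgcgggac
H2-K1: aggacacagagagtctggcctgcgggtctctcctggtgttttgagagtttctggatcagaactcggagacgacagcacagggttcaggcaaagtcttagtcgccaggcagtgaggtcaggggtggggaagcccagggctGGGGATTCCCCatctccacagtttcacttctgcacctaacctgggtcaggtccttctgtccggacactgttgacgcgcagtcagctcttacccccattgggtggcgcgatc

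An NF-kB match was found in the promoters of B2m, H2-D1, H2-K1 and H2-M3, whereas 4.16% of all 32851 promoters in the table held one in the 300 bases searched, which run from 250 before to 50 after the start. In H2-D1 and H2-K1 it is the same stretch of letters, which holds overlapping matches. The response element core was matched in B2m and H2-T23 and in 3.44% of all promoters. A gamma-activated site (TTCNNNGAA) was matched in H2-M3 and in 8.30% of all promoters, and a cAMP response element core (TGACGT) in no member and in 7.51% of all. Over 228 aligned columns, the promoters of H2-D1 and H2-K1 were 90.4% identical. A match describes letters in a window and is no measure of binding. Variants of these patterns were not searched, so the lack of a match does not show that a promoter lacks such an element.

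Signals had a median of 18.7 in MS-1 and 18.4 in SVEC4-10, and background, the level that 95% of probe sets of odorant receptor and similar silent genes stay below, was 16.5 and 17.6. Hybridisation controls had a ratio of 0.961 between the arrays, but poly-A control transcripts, which are added to the RNA, were 1.43-fold higher in SVEC4-10, and matching the arrays on them, here called poly-A scaling, lowers every log2 ratio by 0.51. The label of SVEC4-10 was checked against 15 endothelial markers: 14 were above background in MS-1 and 3 in SVEC4-10, namely Kdr (signal 21.9), Eng (24.6) and Cd34 (103). The array labelled SVEC4-10 had Pecam1 and Cdh5 below background and 10 of 12 mesenchymal markers above it, of which 2 were above background in MS-1. By these lists, the array labelled SVEC4-10 did not show an endothelial marker pattern, and the reason was not tested. In bulk RNA, fewer cells of a type and less RNA per cell cannot be told apart. Both marker lists differ between the arrays along with every member below, and their part in the members' values was not tested.

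The members did not move as a group. A probe set was measured if it was above background on at least 1 array. Below, a log2 ratio is the signal in SVEC4-10 over that in MS-1, after signals under background were set to it, which makes such folds minimum values. A gene is represented by its brightest probe set, preferring one outside the cross-hybridising class named below. Cd1d1 was at least 2-fold higher in SVEC4-10, and Cd274 and Cd276 were at least 2-fold higher in MS-1. The other 6 measured members did not reach 2-fold. For Cd40 and Icosl, each below background on 1 array, the fold is a minimum value, so they cannot be placed within 2-fold. Among all 12553 measured genes, 15.3% were at least 2-fold higher in SVEC4-10 and 12.1% in MS-1, so 1 and 2 of 9 members are close to the background. The median log2 ratio was -0.67 over the members and 0.017 over all measured genes. Under poly-A scaling, 1 member was at least 2-fold higher in SVEC4-10 and 6 in MS-1, beside 1083 and 3194 of all genes in place of 1920 and 1519.

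Errors of log2 ratios come from genes with several probe sets above background on both arrays. The SD of the difference between 2 such probe sets of a gene was divided by the square root of 2. It was 0.48 over 4809 genes, 0.56 over the 1603 dimmest and 0.40 over the 1603 brightest. It contains no variation between cultures. Nearest to the 2-fold limit, Cd274 lay beyond it (log2 ratio -1.33, error 0.56). H2-D1 (-0.997) and Cd40 (-0.98, a minimum value) fell just short of it.

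**Figure D1:**
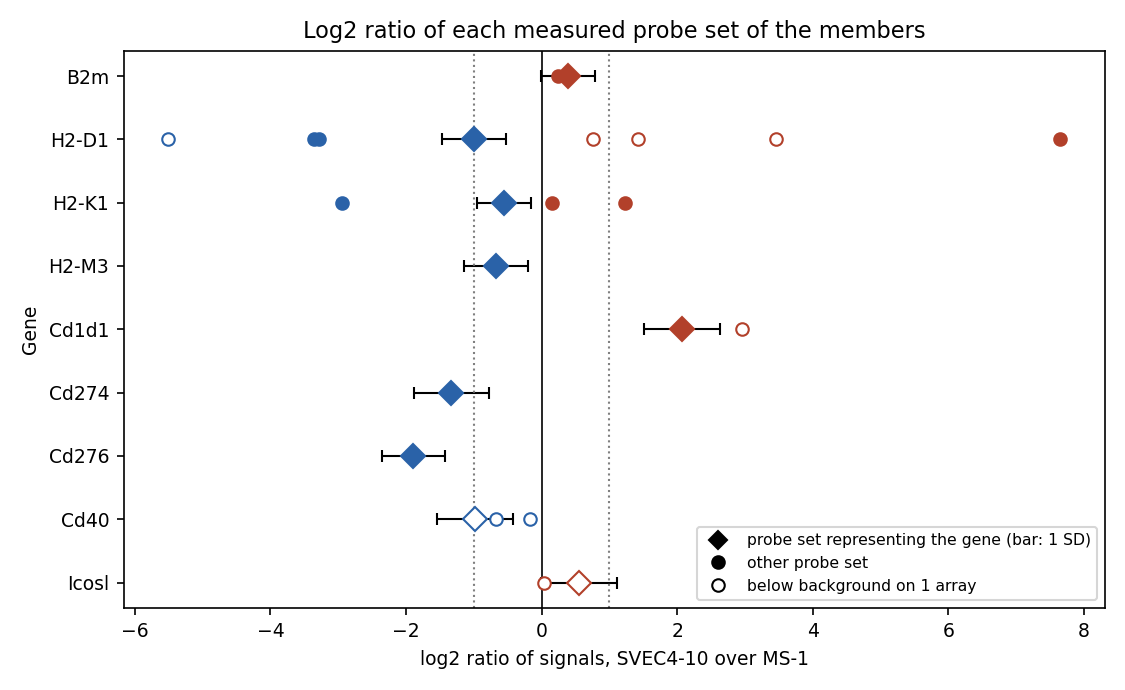
Log2 ratio of signals, SVEC4-10 over MS-1, for each measured probe set of the 9 members (rows). Diamonds mark the probe set that represents the gene, with a bar of 1 error, pooled over genes of similar signal. For H2-D1 and H2-K1 the bars do not cover the spread among their own probe sets. For Cd40 and Icosl the ratio is a minimum value, and the bar does not measure its error. Open symbols mark probe sets below background on 1 array, and dotted lines mark 2-fold. The probe sets of H2-D1 run from -5.50 to 7.65, while the ratios of B2m and Cd1d1 lie close together.

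B2m, the light chain shared by nearly all class I molecules, was bright on both arrays. Its 2 probe sets gave signals of 7177 and 6171 in MS-1 and 9430 and 7295 in SVEC4-10. The first corresponds to a log2 ratio of 0.39 (error 0.40), and the second to 0.24. B2m was thus slightly higher in SVEC4-10 by less than 1 error, and its ratio became -0.12 under poly-A scaling.

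H2-D1, the heavy chain of the D locus, gave opposite answers from different probe sets. Of 9 probe sets assigned to it alone, 8 were above background on at least 1 array. Of these, 3 were at least 2-fold higher in SVEC4-10, 3 at least 2-fold higher in MS-1 and 2 neither. Probe set 1450170_x_at had signals of 23.7 in MS-1 and 4759 in SVEC4-10, 201-fold higher in the latter. Probe set 1451683_x_at showed the reverse, with 801 in MS-1 and a value below background, 11.9, in SVEC4-10, at least 45.4-fold higher in MS-1. The brightest in MS-1, 1425545_x_at and 1451784_x_at, had signals of 3576 and 3245 there.

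In SVEC4-10 these last probe sets had signals of 351 and 334, log2 ratios of -3.35 and -3.28. Probe set 1452544_x_at had a signal of 180 in SVEC4-10 and was below background in MS-1, at least 10.9-fold apart. Smaller values came from 1425614_x_at, with 15.9 (below background) and 44.0, and 1427651_x_at, with 2.56 (below background) and 27.7. Each array thus had bright H2-D1 probe sets, but not the same ones. The probe set used for the gene, 1426324_at, is the only measured one outside the cross-hybridising class, and its signals of 212 and 106 put it 1.9965-fold higher in MS-1. Its error of 0.47 on the log2 scale is pooled over genes of similar signal. That error does not cover the spread among the probe sets of H2-D1. The mean over the 8 probe sets was 0.017.

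H2-K1, the heavy chain of the K locus, showed a smaller disagreement of the same kind. All 4 of its probe sets were above background on both arrays. Probe set 1451931_x_at had signals of 2388 in MS-1 and 309 in SVEC4-10, 7.72-fold higher in MS-1. Probe set 1427746_x_at had 191 and 447, 2.34-fold higher in SVEC4-10. The brightest, 1425336_x_at, which represents the gene, had 1388 and 947, a log2 ratio of -0.55 (error 0.40), and 1450534_x_at had 30.8 and 34.2. This error is likewise pooled and does not cover the spread among the 4 probe sets. A fixed direction therefore cannot be given for H2-K1 or H2-D1.

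**Figure D2:**
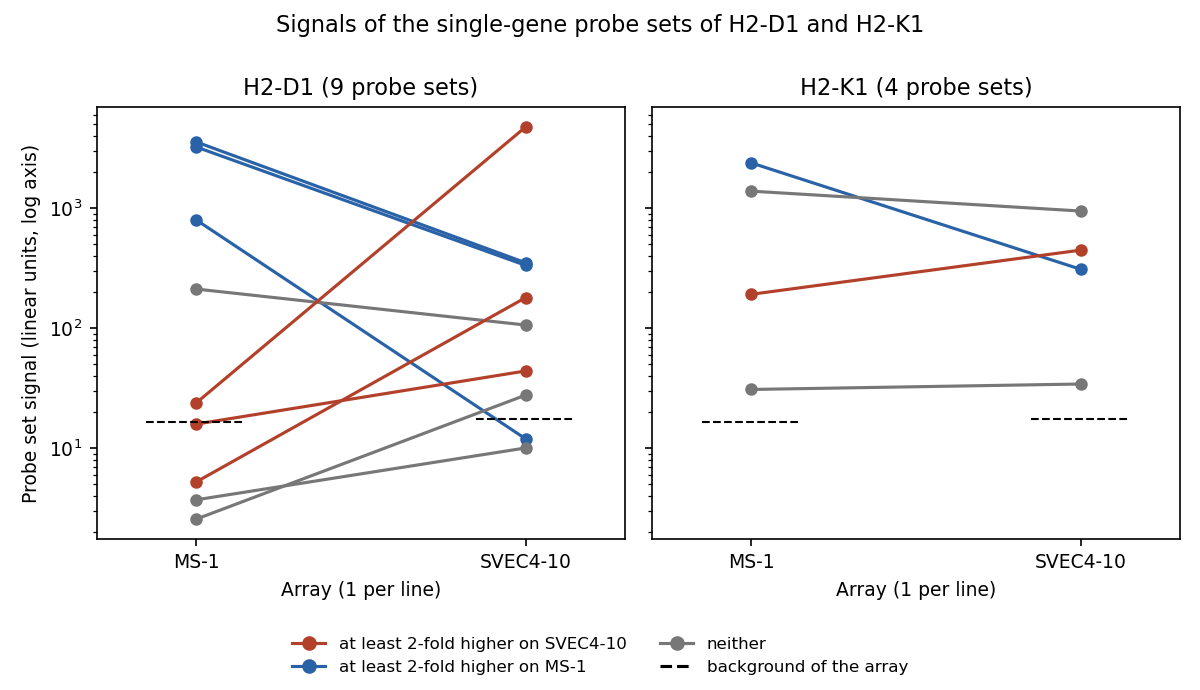
Signals on the MS-1 and SVEC4-10 arrays (linear units on a log axis) of the 9 single-gene probe sets of H2-D1 and the 4 of H2-K1, with a line joining the 2 values of a probe set and dashed lines at the background of each array. Lines of H2-D1 cross: 3 end at least 2-fold higher in SVEC4-10, up to 4759, and 3 start at least 2-fold higher in MS-1, up to 3576.

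The spread within H2-D1 was the widest of the 6104 genes with 2 or more measured probe sets. Its log2 ratios ran from -5.50 to 7.65, a range of 13.2, and the next widest range was 9.09, of Pdxdc1. The median range was 0.61 and 95% of genes stayed below 2.198. H2-K1, with a range of 4.17, was the widest but 33, while B2m had 0.15. Besides H2-D1, Pdxdc1 was the only gene with a probe set at least 4-fold higher in SVEC4-10 and another at least 4-fold higher in MS-1, and it is named for that reason. Among the 13 genes with 8 or more measured probe sets, the widest range after H2-D1 was 4.79.

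Nearly all probe sets of both genes were of 1 class. The suffix _x_at marks probe sets in which some probes match other sequences as well. It was carried by 7 of 8 measured H2-D1 probe sets and 4 of 4 of H2-K1, against 6.43% of all measured probe sets. The 246 genes with 2 or more measured _x_at probe sets had, over these alone, a median range of 0.34, with 95% below 1.79. H2-D1 and H2-K1 held ranks 1 and 2 among them. Other probe sets of a gene are left out of these ranges, so they cannot be compared directly with those of the 6104 genes. The part of near-identical class I genes or of strain-specific sequence in these values was not tested. A probe set annotated to H2-K1 and H2-D1 together had signals of 137 and 2019, 14.7-fold higher in SVEC4-10, and is in none of the counts.

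**Figure D3:**
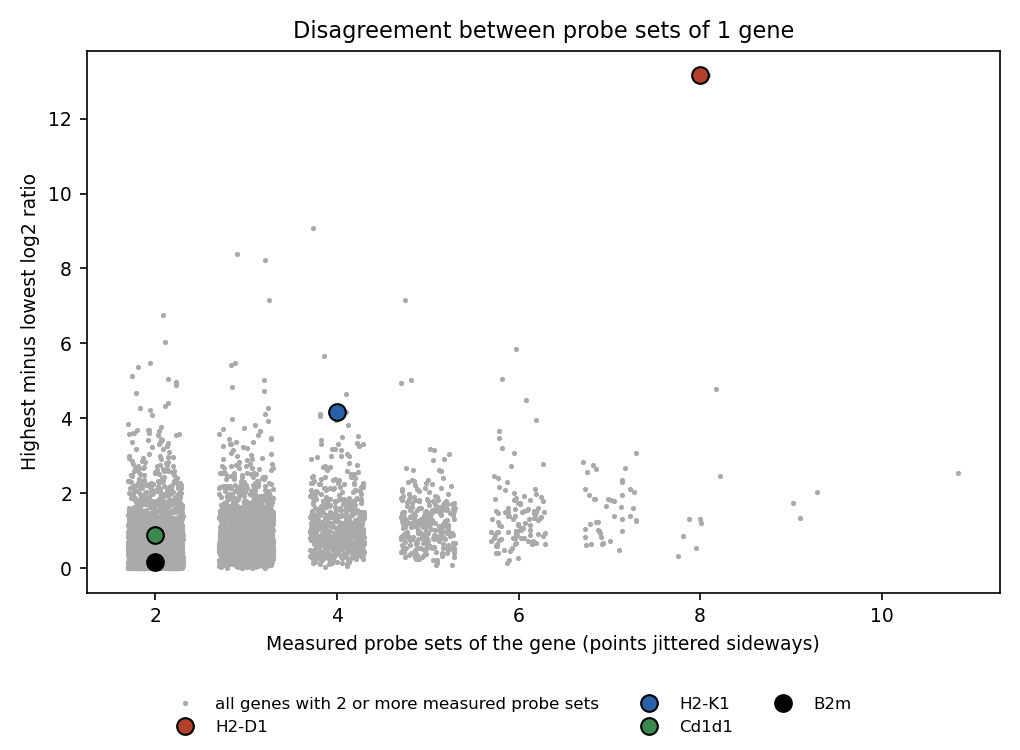
Highest minus lowest log2 ratio among the measured probe sets of a gene (vertical axis, log2 units) against the number of those probe sets (horizontal axis, points shifted sideways for display) for 6104 genes. H2-D1 stands above every other gene at 13.2 and H2-K1 lies at 4.17, with Cd1d1 at 0.88 and B2m at 0.15.

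Genes that lie between H2-K1 and H2-M3 in the RefSeq order of chromosome 17, the MHC region, had no common direction. They were looked at after the members' values had been seen. Of 260 such genes, members left out, 87 were measured, 8 of them at least 2-fold higher in SVEC4-10 (9.20%) and 7 in MS-1 (8.05%), with a median log2 ratio of 0.044. Neighbours were taken from genes listed as protein-coding, members left out, so a measured gene of another kind may lie nearer. The nearest such neighbours of H2-D1 that were measured were Ddx39b, an RNA helicase, with signals of 1897 and 2641, and Tcf19, with 1034 and 1744. Those of H2-K1 were Vps52, with 178 and 90.5, and Ring1, a Polycomb subunit, with 95.9 and 110.3.

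The nonclassical members differed from each other. H2-M3, which presents formylated peptides of bacteria and mitochondria, had signals of 204 in MS-1 and 128 in SVEC4-10. Its single probe set gave a log2 ratio of -0.67 (error 0.47). H2-M3 was therefore within 2-fold, with -1.19 under poly-A scaling. For H2-T23, which encodes Qa-1, a ligand of an inhibitory receptor of natural killer cells, 2 probe sets were shared with the gene H2-T-ps and cannot be assigned to either. Their signals were 39.7 and 0.78 in MS-1, the second below background, and 1138 and 47.6 in SVEC4-10. They were 28.7-fold and at least 2.89-fold higher in SVEC4-10 and are in none of the counts.

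Cd1d1, which presents lipids to natural killer T cells, had the largest ratio towards SVEC4-10 among the probe sets that represent the 9 measured members. Other probe sets of H2-D1 lay further that way, up to a log2 ratio of 7.65. A shared probe set of H2-T23 did too, at 4.84. Probe set 1449131_s_at had signals of 40.7 and 171, 4.19-fold higher in SVEC4-10 (log2 ratio 2.07, error 0.56). Probe set 1449130_at had 14.9, below background, and 127, at least 7.72-fold higher. Both probe sets gave the same direction, and the log2 ratio was between 1.56 and 2.95 in 9 alternative ways of processing. The paralogue Cd1d2 was below background on both arrays.

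The costimulatory and coinhibitory members were higher in MS-1 or near background. Cd276, which encodes the B7 family member B7-H3, had signals of 423 in MS-1 and 114 in SVEC4-10, 3.71-fold higher in the former (log2 ratio -1.89, error 0.47). Cd274, which encodes PD-L1, the ligand of the inhibitory receptor PD-1, had signals of 60.3 and 23.97, 2.52-fold higher in MS-1. Cd274 was dim and close to background in SVEC4-10, and its log2 ratio became -0.77 with background doubled. Each of these genes has 1 probe set, so no second probe set checks them.

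Cd40, a receptor of the TNF receptor family through which T cells stimulate other cells, was above background in MS-1 only. Its 3 probe sets had signals of 34.9, 28.1 and 19.9 in MS-1 and 2.36, 16.4 and 1.87 in SVEC4-10, against a background of 16.5 and 17.6. They give a difference of at least 1.98-fold, 1.59-fold and 1.13-fold, which is a bound set by how dim the gene is. Icosl, the ligand of the T cell receptor ICOS, had signals of 17.1 and 3.72 in MS-1 and 11.6 and 24.1 in SVEC4-10. Its first probe set was above background in MS-1 only and its second in SVEC4-10 only, the latter by at least 1.47-fold. The level of Icosl was therefore at the limit of detection on both arrays.

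Counted by probe set, 24 of the 25 were above background on at least 1 array and 14 on both. At least 2-fold higher in SVEC4-10 were 6 of the 24, against 14.5% of 23035 measured probe sets of all genes, and at least 2-fold higher in MS-1 were also 6, against 12.0%. H2-D1 and H2-K1 account for 4 in each direction.

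The genes around the members are given from fixed lists, counted in the same way. Most interferon-response genes were higher in SVEC4-10, whereas the members had no common direction. Of 23 measured interferon-response genes, 18 were at least 2-fold higher in SVEC4-10, 1 in MS-1 and 4 in neither, with a median log2 ratio of 2.54 (2.03 under poly-A scaling). Iigp1, an interferon-induced GTPase gene, had signals of 39.2 and 585. Oasl1 was the exception towards MS-1, with 270.1 and 94.1. Earlier results on these arrays had shown this list to be high in SVEC4-10, so its count is no independent evidence.

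The machinery that makes and loads class I peptides differed less. Of 12 measured genes, 2 were at least 2-fold higher in SVEC4-10, 0 in MS-1 and 10 in neither, with a median of 0.60. Under poly-A scaling 2 were higher in each line and the median was 0.086. Psmb9, an inducible subunit of the immunoproteasome, had signals of 49.4 and 289, and Tapbp, which encodes tapasin, had 863 and 4437, with a log2 ratio of 1.36 at its other probe set. Psmb8, a further inducible subunit, had 237 and 127. The peptide transporter genes Tap1 and Tap2 had log2 ratios of 0.73 and 0.77.

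Interferon signalling genes and MHC transactivators were mixed. Of 20 measured, 5 were at least 2-fold higher in SVEC4-10 and 1 in MS-1, with a median of 0.38. Under poly-A scaling the balance turned, with 3 higher in SVEC4-10, 5 in MS-1 and a median of -0.14. With the probe set of smallest ratio 3 were higher in SVEC4-10 and 1 in MS-1, with a median of 0.19. Rfxank, higher in SVEC4-10 in the main count, had log2 ratios from -0.75 to 1.18 over its 3 probe sets. The transcription factor genes Irf7 (signals 58.7 and 581), Stat2 (83.9 and 466), Irf9 (197 and 646) and Stat3 (361 and 867) were at least 2-fold higher in SVEC4-10, with log2 ratios from 0.36 to 1.63 over the 4 probe sets of Stat3, whereas Irf8 had 324 and a value below background, at least 18.4-fold higher in MS-1. Nlrc5, the transactivator of class I genes, had signals of 97.9 and 59.5, a log2 ratio of -0.72. Ciita, the transactivator of class II genes, was below background on both arrays.

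Other class I and class I-like genes had values in both directions. Of 9 measured among 14 with a probe set of their own, 2 were at least 2-fold higher in SVEC4-10 and 1 in MS-1, with a median of -0.0036. Under poly-A scaling 2 were higher in each line and the median was -0.52. With the probe set of smallest ratio 1 was higher in each line. Fcgrt, the heavy chain of the neonatal Fc receptor, which pairs with beta-2-microglobulin, was below background in MS-1 and had a signal of 655 in SVEC4-10, at least 39.8-fold higher. H2-Q5 was at least 5.08-fold higher in SVEC4-10, with a log2 ratio of 0.45 at its other probe set. Procr, the endothelial protein C receptor, which has a class I fold but no light chain, had 8730 and 1222, 7.14-fold higher in MS-1. Mr1, which presents vitamin metabolites, had 103.3 and 103.1.

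**Figure D4:**
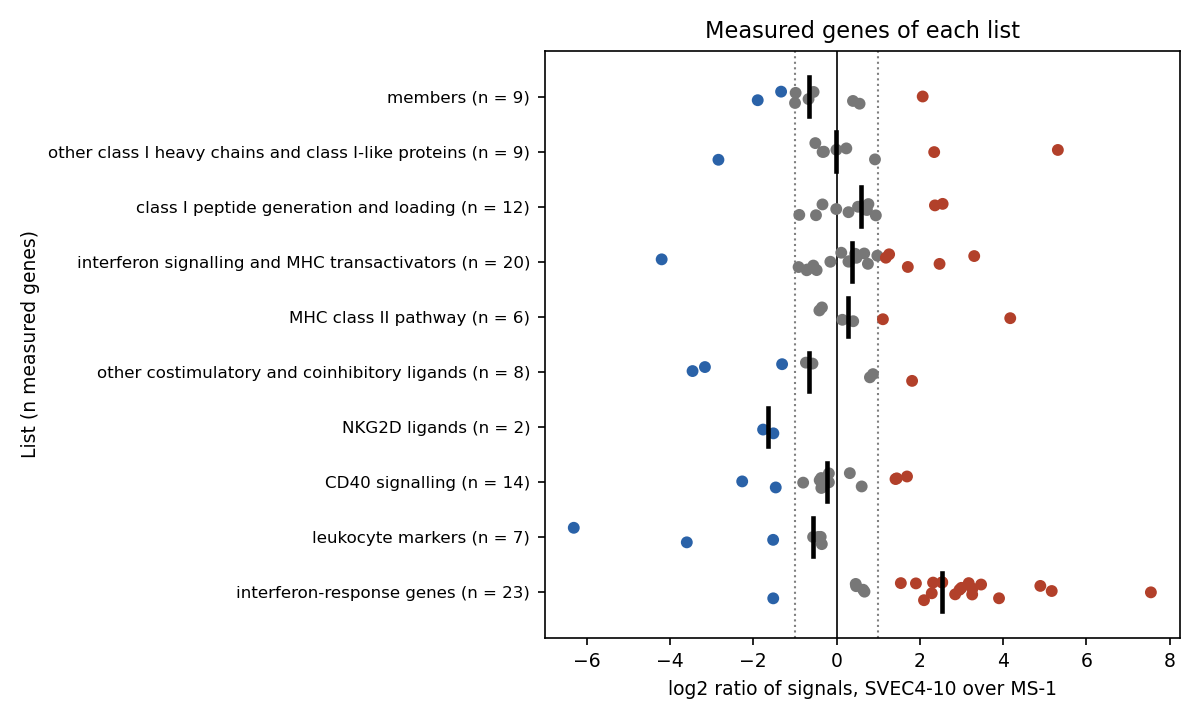
Log2 ratio of signals, SVEC4-10 over MS-1, for the measured genes of the members and of 9 lists (rows), 1 point per gene, with a black bar at the median of the list and dotted lines at 2-fold. The interferon-response genes lie mostly to the right, with a median of 2.54. The members have a median of -0.67, which includes H2-D1 and H2-K1, genes without a fixed direction.

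Class II genes were mostly undetected. Of 13 with a probe set of their own, 6 were above background on at least 1 array, 2 of them at least 2-fold higher in SVEC4-10 and 0 in MS-1. These were Ifi30, a lysosomal thiol reductase induced by interferon, with signals of 68.9 and 1241, and H2-DMa, with 35.6 in SVEC4-10 and a value below background in MS-1. Cd74, the invariant chain, had 30.1 and 23.6. The median was 0.27. It turned to -0.24 under poly-A scaling and was 2.14 with background doubled, and the count in SVEC4-10 was 1 under both.

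Among 18 other costimulatory and coinhibitory ligands on the arrays, 8 were measured, 1 at least 2-fold higher in SVEC4-10 and 3 in MS-1, with a median of -0.66. This median depended on the processing: it was -1.17 under poly-A scaling, with counts of 1 and 5, -0.14 when the 40th percentile of an array served as background, with counts of 2 and 4, and 0.12 with the probe set of smallest ratio, with counts of 0 and 2. Cd80 and Cd86, the classical ligands of CD28, and Pdcd1lg2, the second ligand of PD-1, were below background on both arrays. Icam1, an adhesion ligand of leukocytes, had signals of 213 and 19.4. Pvr, a ligand of DNAM-1 and TIGIT, had 1425 and 159, but its 6 probe sets ran from -4.47 to 0.030. Tnfsf9, the ligand of 4-1BB, had 338 and 136, and Nectin2, a relative of Pvr, had 279 and 981, with a log2 ratio of 0.29 at its other probe set. The 2 measured ligands of the natural killer receptor NKG2D, H60c (88.1 and 25.9) and Ulbp1 (361 and 126), were both higher in MS-1, by 3.40-fold and 2.86-fold.

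Genes that act downstream of CD40 had no common direction: of 14 measured, 3 were at least 2-fold higher in SVEC4-10 and 2 in MS-1, with a median of -0.22. Under poly-A scaling the balance turned, with 1 higher in SVEC4-10, 3 in MS-1 and a median of -0.74. Tnfaip3, Relb and Traf2 were 3.23-fold, 2.72-fold and 2.67-fold higher in SVEC4-10. Traf1, whose product binds the CD40 complex, had a signal of 84.9 in MS-1 and one below background in SVEC4-10. The other probe set of Traf1 had a log2 ratio of -0.51. Birc3 had 120.1 and 43.6. With the probe set of smallest ratio 3 genes of this list were at least 2-fold higher in SVEC4-10 and 1 in MS-1.

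Leukocytes also carry these molecules, and their markers were above background more often in MS-1. Of 14 markers with a probe set of their own, 7 were above background in MS-1 and 2 in SVEC4-10, with signals up to 3645 and 45.9, both from Cd68, a lysosomal protein. Lcp1, an actin-bundling protein, had 213 and 5.63, and 3 of the 7 measured markers were at least 2-fold higher in MS-1. Ptprc, Cd3e, Cd79a, Ms4a1 and Itgam were below background on both arrays. A list of 12 genes was meant to hold receptors of T and natural killer cells for the members, but it includes Trem2, a myeloid receptor that does not belong there. Of the 12, 3 were above background on at least 1 array, with signals of 44.6 in MS-1 for Cd8a, 18.5 in SVEC4-10 for Icos and 17.4 in MS-1 for Trem2. The part of leukocyte RNA in the members' values was not tested.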

How the data were processed

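Total RNA of each line, 6 µg, was labelled with biotin as cRNA and put on Affymetrix arrays, as the labels' protocols state. What the authors deposited is an intensity for every probe set on a linear scale. How probes were summarised is not given in the sources used here. Both had a 2%-trimmed mean of 150.001, and the intensities were taken as deposited. The number of arrays limits the precision.

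Gene names came from the platform annotation, brought up to date with RefSeq (assembly GRCm38.p6) by gene identifier. Of 45101 probe sets, 34958 had 1 gene, 932 several, 9147 were unnamed here and 64 were controls. For background, 127 probe sets of odorant, vomeronasal and taste receptors and keratin-associated proteins were used, at their 95th percentile. Values were raised to it and log2 ratios taken. A gene was represented by its measured probe set of highest mean log2 signal, avoiding suffixes such as _x_at where another existed. Calls are by size, at least 2-fold. Named genes were all members and, of each list, up to 4 in each direction at least 2-fold apart with the largest ratios. Further genes were named after their values were seen, as were the genes of the MHC region. Members, lists and rules were chosen with earlier results of these data known. Of 215 listed symbols, 179 had a probe set of their own. Reference proteins were not used here. The steps were tested on simulated data. Work was done in Python 3.11.15 with pandas 2.3.3, scipy 1.17.1 and Biopython 1.88. The 10 alternatives concern scaling, background, choice of probe set and threshold.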

Additional observations from a re-analysis of the deposited data

How the results depend on the processing

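The count of members at least 2-fold higher in MS-1 was 2 and became 4 with quantile normalization and with centring on the median, 6 scaled to the poly-A controls, 1 with background doubled and 0 at 4-fold. Of all measured genes, 12.1% were at least 2-fold higher in MS-1 in the main setting. This share was 12.7% with quantile normalization, 12.4% with centring and 25.4% scaled to the poly-A controls. With background doubled it was 12.0%, and 4.29% were at least 4-fold higher. H2-D1 and Cd40, at the limit, account for the rise to 4. The count in SVEC4-10 was 1 and became 2 when the 40th percentile of an array served as background, by Icosl. The share of all genes at least 2-fold higher in SVEC4-10 was 15.3% and became 14.8%. Of 80 log2 ratios of members under alternatives, 61 stayed within the error of 0.48 and 19 moved. Poly-A scaling lowers every ratio by 0.51, which is past that error, so every member moved under it. H2-D1 ran from -1.51 scaled to the poly-A controls to 0.75 with the probe set of smallest ratio, H2-K1 from -1.06 to 0.15, Cd40 from -1.496 to 0.017 and Icosl from -0.57 to 1.05. Cd276, Cd274, H2-M3 and Cd1d1 kept their sign under the 9 alternatives that give a ratio. Cd276, Cd274 and H2-M3 have 1 probe set each, above background on both arrays. Alternatives on the choice of probe set, or with a lower or no background, could therefore not change them. The causes were not tested beyond what each alternative changes.

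Alternatives for the probe sets of H2-D1 and H2-K1 and for the lists were chosen after seeing the data. H2-D1 had probe sets at least 2-fold apart in each direction under all of them, and without a background floor 5 in place of 3 were higher in SVEC4-10. For H2-K1, the 1 probe set higher in SVEC4-10 became 0 scaled to the poly-A controls and at 4-fold, and the 1 higher in MS-1 became 2 scaled to the poly-A controls. No paired analysis was possible because each line has 1 array. Signals near background limit Icosl, Cd40 and Cd274.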
